A study of Arabidopsis thaliana with 4 samples.

Results

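The response of wild-type Arabidopsis thaliana shoots to 96 h of low R:FR, meaning light poor in red relative to far-red, was taken from the column for Col-0 in low R:FR set against the column for Col-0 in white light. All loci whose mean over the 4 deposited columns reached 10.8 normalized counts were kept, which were 20111 of 33558 loci. Col-0 is the reference accession of the species. Per the labels, the shoots came from 7-day-old seedlings on agar medium with no sucrose at 22 °C. The white light group had 7 d of continuous white light of 30 to 50 µE with an R:FR of 1.2. The low R:FR group had 3 d of the same white light and then 96 h under LEDs giving 13 µE of red, 1.23 µE of blue and 20 µE of far-red. Effects of R:FR, light amount and light colour cannot be told apart here. The line hfr1-4pil1-2, labelled as mutated in both HFR1 and PIL1 and given the same lights, was used only for a comparison of 11 genes near the end. How many seedlings a library pools is not stated, and a 1 h treatment named in the labels was not analysed here.

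Plants read shade through phytochromes, photoreceptors that red light turns active and far-red light turns inactive. Loss of active phytochrome B lets the phytochrome-interacting factors (PIFs), basic helix-loop-helix transcription factors, raise auxin synthesis and elongation of hypocotyls and petioles. HFR1 and PIL1 are shade-induced members of the same protein family, and HFR1 binds PIFs and limits their action. Light used in photosynthesis acts besides on sugar supply, which is read partly through the kinase SnRK1 and trehalose 6-phosphate.

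The deposited values are read counts divided by a size factor of each library, here called normalized counts. The authors averaged the Col-0 libraries into 1 column per light, and the steps of the values gave back the whole reads of 2 libraries per light, with 11476920 and 7578670 reads recovered under white light and 13765680 and 11062781 in low R:FR. The split failed for 97 of the 20111 loci, each at 10196 normalized counts or more in at least 1 of the Col-0 columns, and these have a mean per light but no test. The recovered reads of 20014 loci were tested with edgeR's quasi-likelihood test, and "rose" and "fell" are kept for loci with a Benjamini-Hochberg adjusted p under 0.05. Nothing in the labels says whether the 2 libraries of a light came from separate plants, so the p-values measure only the spread between these libraries, which may be technical. A log2 fold change with ± is edgeR's fitted value with an approximate standard error (SE), and pairs of values per light are normalized counts in libraries 1 and 2. A log2 ratio is that of the deposited means after adding 10.8 normalized counts to each, which understates the change of low genes.

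Of the 20014 tested loci, 4611 rose (23.0%) and 5056 fell (25.3%), together 48.3%, and the counts of gene groups given further on are to be read against these shares. Most called changes were small, with a median absolute log2 fold change of 0.56 and 4093 of 9667 called loci (42.3%) under 0.5. By the log2 ratio, 963 loci (4.79% of 20111) stood at 1 or more in low R:FR, here called 2-fold higher, and 561 (2.79%) stood at -1 or less, called 2-fold lower. The balance moved with expression level. Of 1856 tested loci with a mean of 1000 to 10000 normalized counts, 25.3% rose and 51.5% fell, against 17.9% and 16.2% of 6426 loci from the filter value to 100. The direction of the 2-fold set also depended on scaling. As deposited 63.2% of it was higher, and with the Col-0 columns rescaled to the same total it was 73.7% (1210 higher and 431 lower), because that scaling shifts the median log2 ratio of all loci by 0.12, from -0.02 to 0.10. DESeq2 on the same reads called 2801 higher and 3062 lower. The plot of log2 ratio against level shows this spread, from a few genes past 8-fold (21 higher, 34 lower) to the dense middle.

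**Figure D1:**
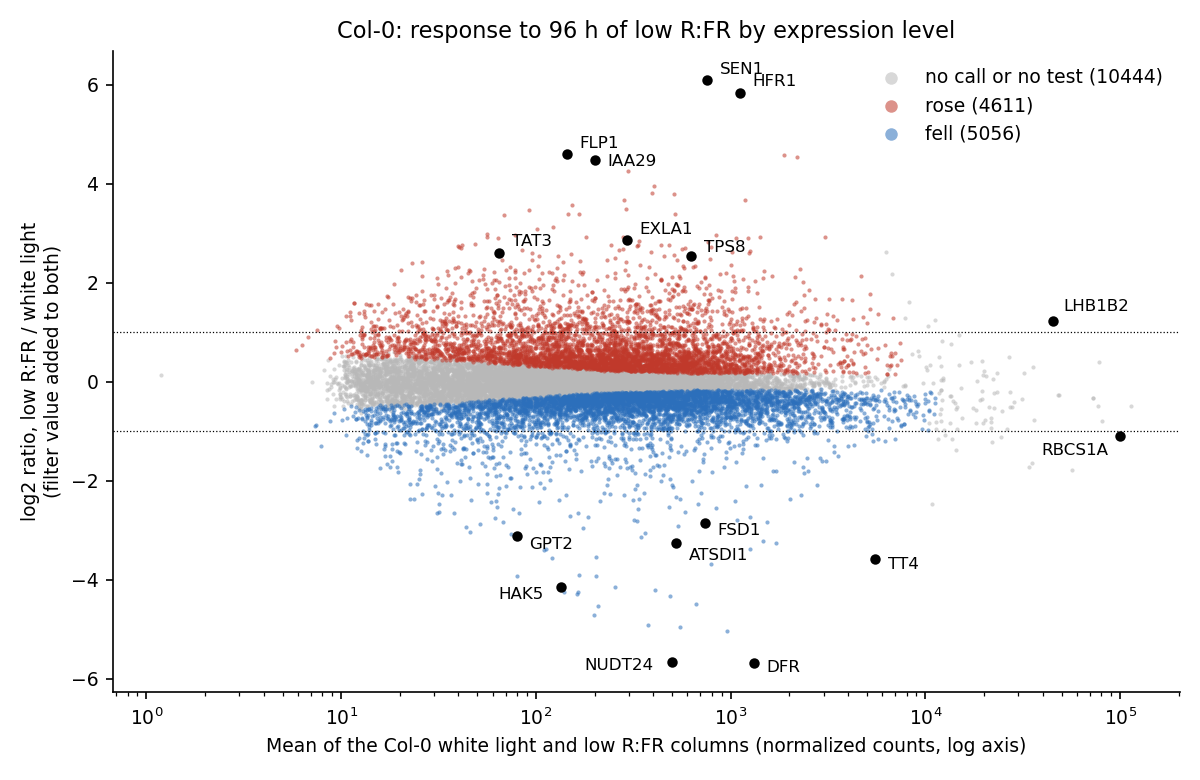
Each point is 1 of the 20111 loci, with the mean of the Col-0 white light and low R:FR columns in normalized counts (log axis) on the x axis and the log2 ratio of low R:FR to white light on the y axis. The 4611 loci that rose are red, the 5056 that fell blue and the rest grey, dotted lines mark a log2 ratio of 1 and -1, and named genes are black. SEN1 and HFR1 stand highest and DFR and NUDT24 lowest.

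All 12 shoot markers, genes of light harvesting and carbon fixation in leaves, passed the filter, and the lowest of them stood at 6269 normalized counts in white light. Their log2 ratios had a median of -0.55, 9 of the 12 were below 0, and their summed share of the column went from 4.75% to 3.48%. All 16 root markers on the list passed as well, although the labels name shoots. PYK10, a myrosinase of roots, was the most abundant, at 30068 normalized counts under white light and 33840 in low R:FR. The other 15 summed to 3005 and 3215 normalized counts in white light and to 4156 and 4138 in low R:FR. IRT1, the root iron transporter, was at 921 and 663 under white light and at 637 and 672 in low R:FR, and did not pass the test (edgeR, Benjamini-Hochberg adjusted p = 0.0508). The summed share of the 16 root markers went from 0.290% to 0.364%, and 11 had a log2 ratio above 0. Of 15 tested root markers 5 rose (TIP2;3, CASP2, CASP1, MYB36 and PRP3) and 1 fell (NRT2:1), and DESeq2 did not call MYB36 and PRP3, which were also lost without white light library 1. CASP1 and CASP2, which build the Casparian strip of the root endodermis, rose by 1.11 ± 0.12 and 1.13 ± 0.15 (SE). The part of a changed root share in the results on transporters and mineral nutrition was not tested, and fewer cells of a type cannot be told apart from less RNA per cell. Seed markers were low, with 5 of 10 past the filter.

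Promoter sequence was read for the genes whose windows hold a letter string known to be bound by PIFs or other basic helix-loop-helix and bZIP factors. The strings were CACATG (either strand, so also read as CATGTG) and the palindromic G-box CACGTG, neither of which overlaps the other at the same bases. Windows of 300 bases, 250 before to 50 after the RefSeq gene start, were used for 19338 tested nuclear protein-coding genes. CACATG was in 19.0% of 932 windows of genes that rose and were at least 2-fold higher, in 14.6% of 527 windows of genes that fell and were at least 2-fold lower, and in 13.0% of all tested windows. It was in 12.9% of the 27443 windows of all nuclear protein-coding genes. CACGTG was in 11.6%, 11% and 8.95% of these sets of tested genes, and in 7.68% of all 27443 windows. The auxin response strings TGTCTC and TGTCGG (both strands) were in 13.0% and 5.15% of the higher set, against 13.6% and 5.65% of all tested windows. The evening element AAAATATCT was in 3.76% against 3.00% and the abscisic acid string ACGTGGC in 5.58% against 4.82%, both on either strand. A match is a description of the letters only. Shown here are the 250 bases before the start of the 4 highest-ranked genes that rose with CACATG there, and of the 2 lowest-ranked genes that fell with CACGTG. They come from the RefSeq TAIR10.1 genome, 5′ to 3′ on the gene's strand, with the string in capitals. SAUR22 (chr5:5975088-5975337, minus strand) and SAUR-type genes in general are rapidly induced by auxin. TAT3 (chr2:10585217-10585466, minus) is a tyrosine aminotransferase gene, YUC8 (chr4:14192319-14192568, plus) makes auxin, and PCK2 (chr5:26265930-26266179, plus) encodes a phosphoenolpyruvate carboxykinase. DFR (chr5:17166033-17166282, minus) and UF3GT (chr5:21938397-21938646, minus) act in anthocyanin synthesis.
SAUR22: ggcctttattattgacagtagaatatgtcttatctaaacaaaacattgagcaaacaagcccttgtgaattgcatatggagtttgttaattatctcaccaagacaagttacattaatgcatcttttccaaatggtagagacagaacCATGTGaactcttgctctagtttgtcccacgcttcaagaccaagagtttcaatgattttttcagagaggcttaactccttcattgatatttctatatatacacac
TAT3: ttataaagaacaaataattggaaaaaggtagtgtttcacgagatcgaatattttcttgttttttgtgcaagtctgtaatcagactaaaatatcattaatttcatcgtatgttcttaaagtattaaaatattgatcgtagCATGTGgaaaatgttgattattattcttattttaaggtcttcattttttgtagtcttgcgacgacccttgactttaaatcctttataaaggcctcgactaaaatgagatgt
YUC8: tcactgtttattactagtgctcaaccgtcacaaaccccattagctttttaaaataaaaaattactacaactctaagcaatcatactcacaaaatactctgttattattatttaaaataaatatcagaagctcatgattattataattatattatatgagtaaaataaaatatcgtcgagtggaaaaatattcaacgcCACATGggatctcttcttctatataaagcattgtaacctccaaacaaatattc
PCK2: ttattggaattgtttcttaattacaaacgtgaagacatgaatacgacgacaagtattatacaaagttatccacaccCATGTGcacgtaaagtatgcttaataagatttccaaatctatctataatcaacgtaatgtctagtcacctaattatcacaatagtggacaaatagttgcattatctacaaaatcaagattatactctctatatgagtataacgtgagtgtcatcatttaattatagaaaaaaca
DFR: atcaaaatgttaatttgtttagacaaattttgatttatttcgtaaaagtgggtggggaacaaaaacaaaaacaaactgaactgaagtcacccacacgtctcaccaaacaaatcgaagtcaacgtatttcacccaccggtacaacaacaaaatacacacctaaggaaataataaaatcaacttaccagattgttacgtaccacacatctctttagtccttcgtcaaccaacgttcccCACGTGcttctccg
UF3GT: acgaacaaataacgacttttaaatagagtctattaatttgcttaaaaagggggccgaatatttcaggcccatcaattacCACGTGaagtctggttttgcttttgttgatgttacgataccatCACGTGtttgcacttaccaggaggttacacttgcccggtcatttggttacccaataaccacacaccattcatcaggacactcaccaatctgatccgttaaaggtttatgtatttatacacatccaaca
The string begins at base -53 in YUC8, at -105 in SAUR22, at -111 in TAT3 and at -174 in PCK2, counted from the gene start. In UF3GT the G-box occurs at -171 and -128, and in DFR at -14. YUC8 went from 21.4 and 32.4 normalized counts in white light to 174 and 184 in low R:FR (2.78 ± 0.18 SE), and PCK2 from 29.4 and 43.1 to 201 and 280 (2.76 ± 0.21 SE). In both genes the 2 lights did not overlap, which held for 35.6% of tested loci with both low R:FR libraries above and for 38.9% with both below.

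Ranked by fitted value, and leaving out genes with no symbol or with a mean under 54.2 normalized counts, the upper end was headed by FLP1, SEN1 (also called DIN1), HFR1, IAA29 and CYP71A20. FLP1, a homolog of a flowering promoting factor, was at 0.794 and 2.40 normalized counts under white light and at 294 and 282 in low R:FR. Its log2 fold change of 7.56 ± 0.26 (SE) rested on few white light reads and was 6.85 without white light library 1 and 8.35 without library 2. IAA29, an Aux/IAA repressor gene of auxin signalling, rose from 6.35 and 8.39 to 353 and 435 (5.75 ± 0.22 SE). Further down that ranking stood genes of jasmonate and tyrosine metabolism. ST2A, whose sulfotransferase inactivates hydroxylated jasmonate, rose from 46.1 and 39.6 to 680 and 804 (4.09 ± 0.13 SE). SAUR22 rose from 5.56 and 13.2 to 137 and 157 (4.07 ± 0.26 SE), or 3.46 without white light library 1 and 4.70 without library 2. TAT3 stood at 17.5 and 3.60 in white light, so that its own libraries differed widely, and at 110 and 128 in low R:FR (3.31 ± 0.30 SE, and 5.0 without white light library 1). Adjusted p of the 15 highest genes lay between 1.29e-11 for HFR1 and 1.42e-06 for TAT3 (edgeR, Benjamini-Hochberg).

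At the other end stood anthocyanin genes and several of other roles. UF3GT, which adds a sugar to anthocyanins, fell from 839 and 645 normalized counts to 14.7 and 13.3 (-5.72 ± 0.18 SE). GSTF12, needed to bring anthocyanins into the vacuole, fell from 1131 and 1016 to 24.6 and 23.5 (-5.48 ± 0.12 SE), and AT5MAT, which attaches malonyl groups to them, from 444 and 378 to 9.21 and 5.48 (-5.76 ± 0.19 SE). The activators of the pathway fell with its enzymes. The MYB gene PAP1 went from 234 and 197 to 9.82 and 11.8 (-4.34 ± 0.19 SE). The bHLH gene TT8 went from 168 and 116 to 9.82 and 4.70 (-4.25 ± 0.29 SE, or -4.92 without low R:FR library 1). Outside that pathway, HAK5, a potassium transporter best known from roots short of potassium, fell from 285 and 242 to 2.46 and 7.05 (-5.86 ± 0.25 SE, between -5.22 and -6.70 without either low R:FR library). EARLI1, a lipid-transfer-like cell wall protein gene, fell from 986 and 580 to 40.5 and 24.3 (-4.58 ± 0.26 SE). Adjusted p of the 15 lowest genes lay between 1.29e-11 for GSTF12 and 9.13e-08 for FTM1 (edgeR, Benjamini-Hochberg).

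In normalized counts, and among nuclear genes with a symbol, RBCS1A, RBCS3B and RCA of carbon fixation had the largest losses, and the light-harvesting genes LHB1B2 and CAB1 the largest gains. The normalized counts here are not divided by gene length, so they are compared within a gene. The 10 largest losses summed to 336792 normalized counts and the 10 largest gains to 124403, against a column total of 11427477 for white light and one of 10433887 for low R:FR. The 4 RBCS genes, which encode the small subunit of Rubisco, held 2.68% of the white light column and 1.13% of the low R:FR column. RBCS1A went from 136384 to 63407 (log2 ratio -1.1) and RBCS3B from 87547 to 25440 (-1.78). The copies of RBCS are nearly identical, so reads may have been split between them by the authors' counting. RCA, which activates Rubisco, went from 102057 to 59206 (-0.79), and CA1, a carbonic anhydrase, from 53353 to 17159 (-1.64). Among the gains, LHB1B2, a light-harvesting protein of photosystem II, went from 27054 to 63082 (1.22), and CAB1 from 66667 to 88186 (0.40). XTH4, which cuts and rejoins xyloglucan in the wall, went from 1762 to 10835 (2.61), and the vacuolar water channel gene DELTA-TIP from 2424 to 11005 (2.18). The genes given here one by one had no test, since at least 1 column could not be split. Most light-harvesting and photosystem genes went the other way from LHB1B2 and CAB1. Of 66 chosen by description that passed the filter 56 had a log2 ratio below 0, with a median of -0.50, and of the 42 with a test 39 fell and 1 rose (34 and 1 by DESeq2). Their summed share stood at 6.55% of the white light column and 6.47% of the low R:FR column.

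**Figure D2:**
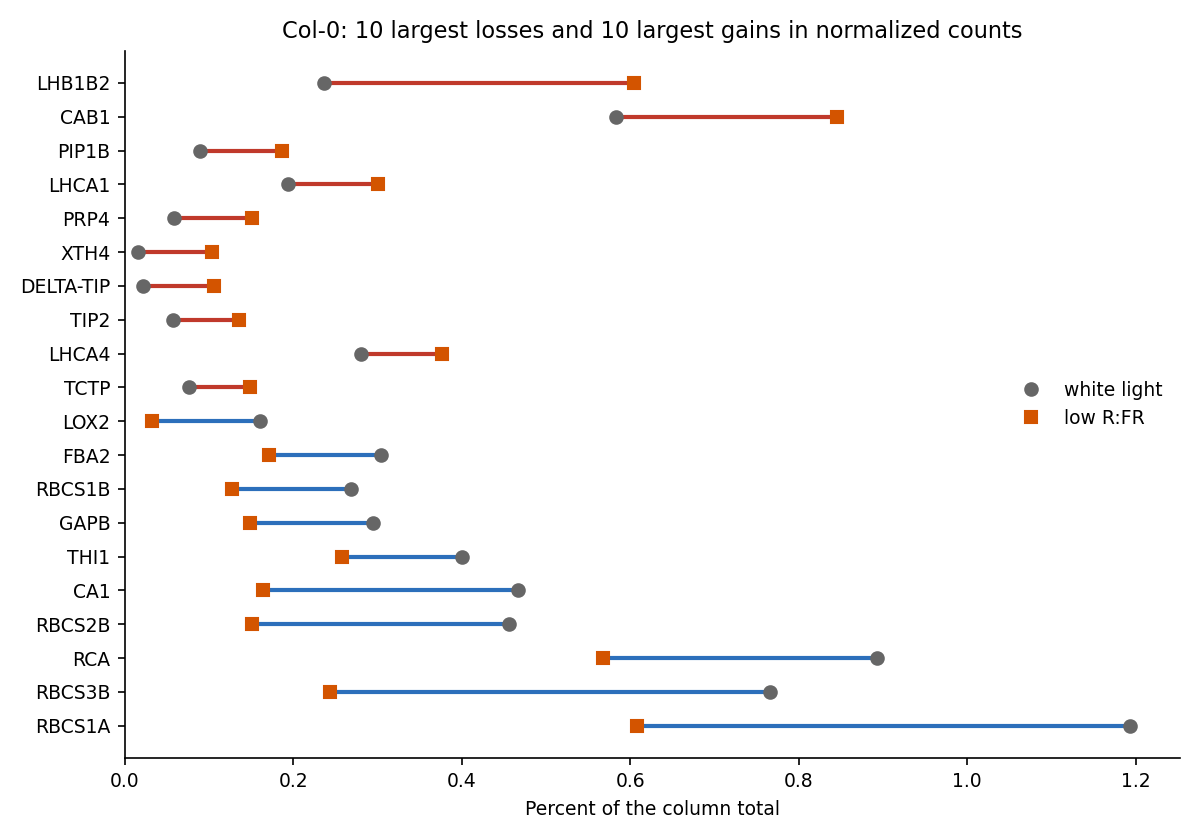
Share of the Col-0 column total (percent, x axis) in white light (grey circles) and low R:FR (orange squares) for the 10 nuclear genes with a symbol that had the largest loss (blue lines) and the 10 with the largest gain (red lines) in normalized counts. RBCS1A and RBCS3B lost the most and LHB1B2 gained the most.

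Calvin cycle genes were lower throughout. All 20 passed the filter and all 20 had a negative log2 ratio, with a median of -0.89 against -0.02 over all loci, 6 of them at least 2-fold lower. Only 7 could be split, and all 7 fell, led by TIM (triose phosphate isomerase), which went from 5673 and 5660 to 2923 and 3175 (-0.89 ± 0.065 SE). Photorespiration, which salvages the products of Rubisco's oxygenation, had a median of -0.58 over 13 genes. Its 5 tested genes fell, with GDCH, a subunit of glycine decarboxylase, going from 7991 and 7731 to 3493 and 3582 (-1.15 ± 0.062 SE). GGT1, a photorespiratory aminotransferase, was the 1 member with a positive ratio, at 18195 and 18427 (0.02, no test). Adjusted p ranged from 1.75e-07 to 0.00358 in the Calvin cycle genes and from 1.12e-08 to 0.000714 in the photorespiratory ones (edgeR, Benjamini-Hochberg).

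Starch genes fell in 21 of 26 cases and 1 rose, with a median log2 ratio of -0.50. The call covered synthesis and breakdown alike. GPT2, which brings glucose 6-phosphate into plastids, went from 186 and 117 normalized counts to 11.1 and 4.70 (-4.23 ± 0.31 SE, or -5.02 without low R:FR library 1). GBSS1, the starch synthase that makes amylose, went from 2090 and 1791 to 433 and 457 (-2.13 ± 0.084 SE), and APL3, a subunit of ADP-glucose pyrophosphorylase, from 593 and 489 to 222 and 209 (-1.34 ± 0.10 SE). BAM5, a beta-amylase outside the plastid, fell from 33.4 and 39.6 to 1.84 and 3.13 (-3.84 ± 0.40 SE). The exception was AMY3, a plastid alpha-amylase, which rose by 0.25 ± 0.069 (SE) but was not called by DESeq2, nor without white light library 2 or low R:FR library 2. In all 4 genes that fell most, the lights were far apart and did not overlap.

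Genes of trehalose 6-phosphate metabolism went mostly the other way, with 10 of 17 up and 4 down and a median of 0.35. The class II synthase genes, whose proteins carry synthase and phosphatase domains and are known as sugar- and starvation-responsive, led. TPS8 rose from 152 and 201 normalized counts to 1065 and 1090 (2.63 ± 0.10 SE), TPS11 from 98.5 and 104 to 419 and 563 (2.27 ± 0.15 SE), and TPS9 from 227 and 273 to 797 and 1036 (1.88 ± 0.13 SE). TPS10 (1.36 ± 0.11 SE) and ATTPS6 (0.96 ± 0.095 SE) rose less. TPS1, the active synthase, fell from 787 and 718 to 467 and 418 (-0.77 ± 0.081 SE), and TPS5 fell as well (-0.80 ± 0.092 SE). The synthase genes thus split by member rather than moving as a block. Adjusted p of the 14 called members lay between 6.23e-10 for TPS8 and 0.0191 for ATTPPA (edgeR, Benjamini-Hochberg). ATTPPA was not called by DESeq2, nor without white light library 2 or low R:FR library 1.

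Amino acid breakdown genes rose in 14 of 22 cases and fell in 3, with a median log2 ratio of 0.49 and 9 at least 2-fold higher. Those that rose covered several steps of branched-chain amino acid oxidation in mitochondria. BCAT-2, the aminotransferase of the first step, went from 15.9 and 13.2 normalized counts to 282 and 301 (4.29 ± 0.16 SE). BCE2 and DIN4, subunits of the branched-chain keto acid dehydrogenase, rose by 1.62 ± 0.098 and 1.12 ± 0.096 (SE), IVD by 1.47 ± 0.096 and MCCA by 1.39 ± 0.092 (SE). ERD5, the proline dehydrogenase, went from 1046 and 1078 to 3125 and 3439 (1.63 ± 0.070 SE). The lysine-degrading enzyme gene AT4G33150 went from 301 and 397 to 1008 and 1016 (1.56 ± 0.10 SE). PYD4, an aminotransferase of beta-alanine, fell from 453 and 675 to 256 and 182 (-1.33 ± 0.17 SE). Autophagy genes, which feed such breakdown, rose in 6 of 16 cases and none fell, led by ATG8E, which went from 209 and 253 to 704 and 781 (1.7 ± 0.098 SE).

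The sugar transport list held carriers and also enzymes of sucrose metabolism. Its 21 genes were all called by edgeR, 15 up and 6 down, against 11 and 6 by DESeq2. STP1, a hexose importer of the plasma membrane, rose from 504 and 511 to 1303 and 1554 (1.49 ± 0.088 SE). SWEET16, a vacuolar sugar carrier, rose from 57.2 and 70.7 to 200 and 201 (1.67 ± 0.13 SE). The phloem loading carriers went up by less, SWEET11 by 0.70 ± 0.066, SWEET12 by 0.60 ± 0.074 and SUC2 by 0.51 ± 0.074 (SE). SWEET13, a close relative of these, fell from 110 and 107 to 56.5 and 37.6 (-1.17 ± 0.18 SE). The sucrose phosphate synthase genes ATSPS4F and SPS1F fell (-0.68 ± 0.064 and -0.65 ± 0.063 SE).

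Sulfur assimilation fell almost as a whole. Of 16 genes 15 fell and none rose, 9 were at least 2-fold lower, and the median log2 ratio was -1.27. The strongest changes were in genes used as markers of sulfur shortage. ATSDI1 went from 864 and 1050 normalized counts to 112 and 68.2 (-3.37 ± 0.15 SE), LSU1 from 839 and 1072 to 126 and 107 (-3.01 ± 0.13 SE) and LSU2 from 765 and 887 to 161 and 106 (-2.60 ± 0.14 SE). BGLU28, a beta-glucosidase of glucosinolate breakdown, fell from 161 and 189 to 38.7 and 29.8 (-2.32 ± 0.17 SE). The enzymes of the pathway followed. The 3 genes of APS reductase, the committed step of sulfate reduction, fell together, with log2 fold changes of -1.82 ± 0.066 for APR1, -1.74 ± 0.074 for APR3 and -1.3 ± 0.064 for APR2 (SE). SIR, sulfite reductase, fell from 3620 and 3826 to 2042 and 1936 (-0.90 ± 0.065 SE). Of the transporters, SULTR4;2, which exports sulfate from the vacuole, fell from 415 and 421 to 120 and 90.9 (-1.97 ± 0.11 SE), and SULTR1;1, a root uptake carrier at 17.5 and 16.8 against 19.0 and 19.6, was the 1 gene not called (edgeR, Benjamini-Hochberg adjusted p = 0.683). Adjusted p of the others lay between 3.45e-10 for APR1 and 0.00286 for APK, which was lost without white light library 1 (edgeR, Benjamini-Hochberg).

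Phosphate starvation genes were lower in a like manner, with 11 of 15 down, 1 up, 8 at least 2-fold lower and a median log2 ratio of -1.14. Those with the largest change release or spare phosphate. PS2, a pyrophosphatase gene, fell from 233 and 301 to 38.7 and 24.3 (-3.02 ± 0.19 SE). MGDC, which makes galactolipid in place of phospholipid, fell from 86.6 and 138 to 14.7 and 10.2 (-3.09 ± 0.28 SE), and SQD1, an enzyme of sulfolipid synthesis, from 1202 and 1182 to 548 and 523 (-1.15 ± 0.067 SE). SPX1, a phosphate sensor of the nucleus, fell from 343 and 497 to 131 and 107 (-1.78 ± 0.16 SE). PHO1, which loads phosphate into the xylem, was the 1 gene that rose, from 821 and 706 to 1165 and 1097 (0.56 ± 0.079 SE). In PS2, MGDC, SPX1 and SQD1 the lights did not overlap, though the white light libraries of MGDC and SPX1 lay apart.

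Nitrogen genes went both ways, 7 up and 9 down of 21. ASN1, an asparagine synthetase, rose from 38.9 and 28.8 to 317 and 339 (3.23 ± 0.14 SE). NRT2:1, a high-affinity nitrate carrier and also on the root list, fell from 22.2 and 34.8 to 3.68 and 5.48 (-2.59 ± 0.41 SE). The ammonium carrier gene AMT1;2 fell from 1541 and 1309 to 519 and 587 (-1.37 ± 0.089 SE), and nitrite reductase NIR1 from 5202 and 4960 to 2550 and 2847 (-0.91 ± 0.070 SE). Iron genes gave 3 up and 6 down of 18, and this rested on single libraries. Without white light library 1 it was 8 up and 5 down, without white light library 2 it was 1 and 8, and without low R:FR library 2 it was 1 and 6. BHLH101, an iron deficiency regulator, stood at 63.5 and 33.6 under white light and 158 and 179 in low R:FR (1.71 ± 0.19 SE, or 2.32 without white light library 1).

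**Figure D3:**
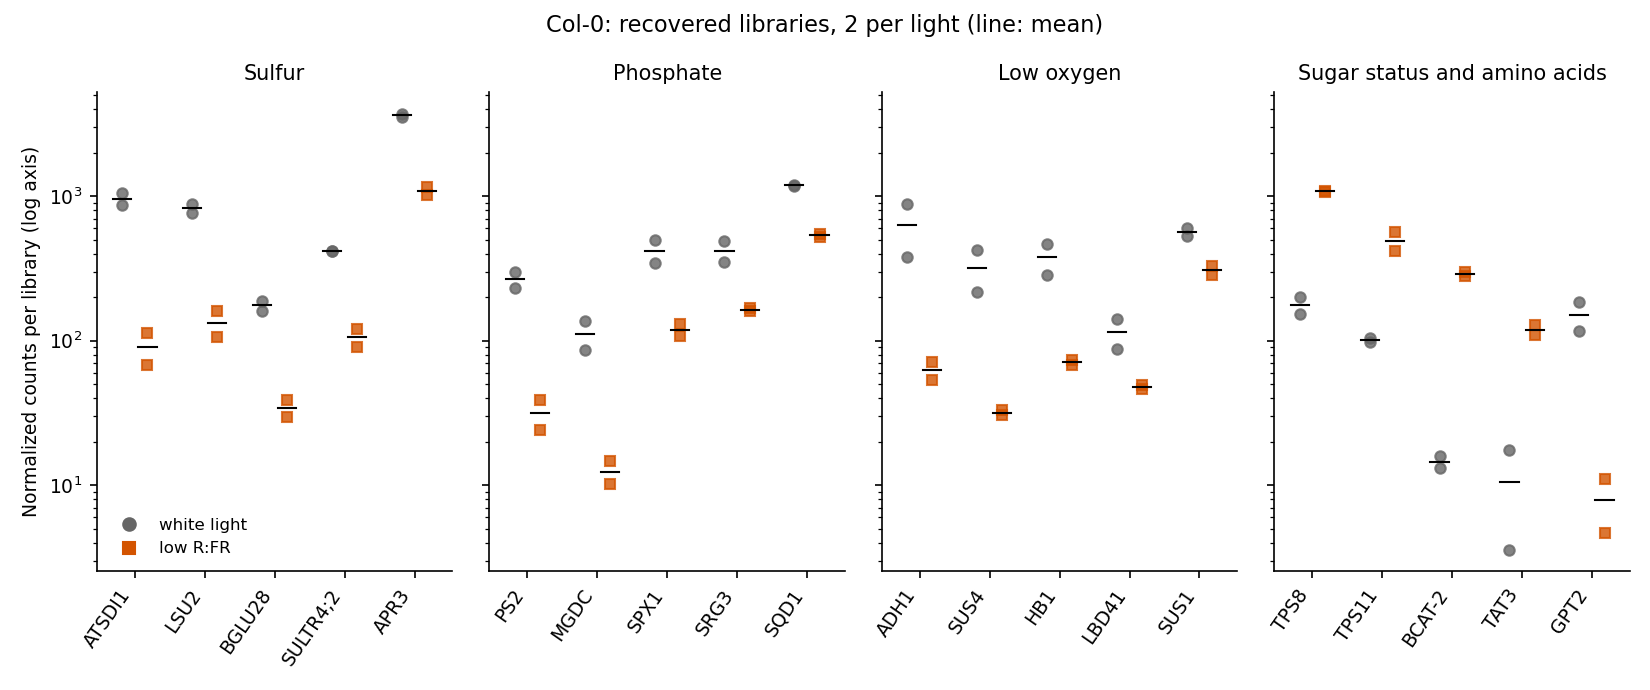
Normalized counts of each recovered Col-0 library (log axis) for 5 genes each of sulfur, phosphate, low oxygen and sugar status with amino acid breakdown, white light as grey circles and low R:FR as orange squares, with a line at the mean of the 2 libraries. The lights do not overlap in any of these genes, and the white light libraries of TAT3 and ADH1 lie far apart.

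Genes induced by low oxygen fell in 12 of 13 cases, 9 at least 2-fold, with a median log2 ratio of -1.24. ADH1, alcohol dehydrogenase of fermentation, stood at 888 and 380 normalized counts under white light and at 71.8 and 53.3 in low R:FR (-3.36 ± 0.32 SE). SUS4, a sucrose synthase, went from 421 and 216 to 33.2 and 30.6 (-3.36 ± 0.28 SE). HB1, a hemoglobin gene, went from 470 and 283 to 73.7 and 68.2 (-2.44 ± 0.20 SE). White light library 1 was above library 2 in each of them, so the size of the change depends on it: without that library the log2 fold change was -2.58 for ADH1 and -2.75 for SUS4, both still called. AlaAT1, alanine aminotransferase, did not move with the others, at 1369 and 1327 against 1398 and 1293 (edgeR, Benjamini-Hochberg adjusted p = 0.978).

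Genes that detoxify reactive oxygen fell in 13 of 19 cases and rose in 3, with a median of -0.72. Among those that rose were CSD1, a copper/zinc superoxide dismutase (0.16 ± 0.062 SE), and CCS, a copper chaperone (0.45 ± 0.073 SE). DESeq2 did not call CSD1. The catalase CAT3 had no test and went from 9673 to 13739 (log2 ratio 0.51). FSD1, a superoxide dismutase that uses iron, fell from 1089 and 1517 to 209 and 133 (-2.89 ± 0.17 SE), and its plastid relatives FSD3 and FSD2 by -1.34 ± 0.088 and -0.75 ± 0.085 (SE). GPX7, a plastid glutathione peroxidase, fell from 54.0 and 57.5 to 5.53 and 3.92 (-3.50 ± 0.30 SE). PRXQ, a plastid peroxiredoxin, fell from 4880 and 4979 to 1807 and 1883 (-1.42 ± 0.063 SE). Genes of photoprotection and UV-B response were lower too, 8 of 12 down and 1 up, against 6 and none by DESeq2. ELIP1 and ELIP2, light-stress relatives of the light-harvesting proteins, fell from 802 and 614 to 158 and 179 (-2.09 ± 0.12 SE) and from 285 and 258 to 78.0 and 61.1 (-1.95 ± 0.13 SE). Of 22 carotenoid and tocopherol genes 18 fell and 2 rose, with small changes (median log2 ratio -0.35). The tocopherol cyclase VTE1 moved most (-1.08 ± 0.082 SE), and phytoene synthase PSY, the entry to carotenoids, fell from 3475 and 3203 to 1796 and 1990 (-0.82 ± 0.072 SE). Among the 39 light-harvesting and photosystem genes that fell, LHCB4.3 is named for its size of change, falling from 1516 and 1450 to 101 and 110 (-3.82 ± 0.084 SE).

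**Figure D4:**
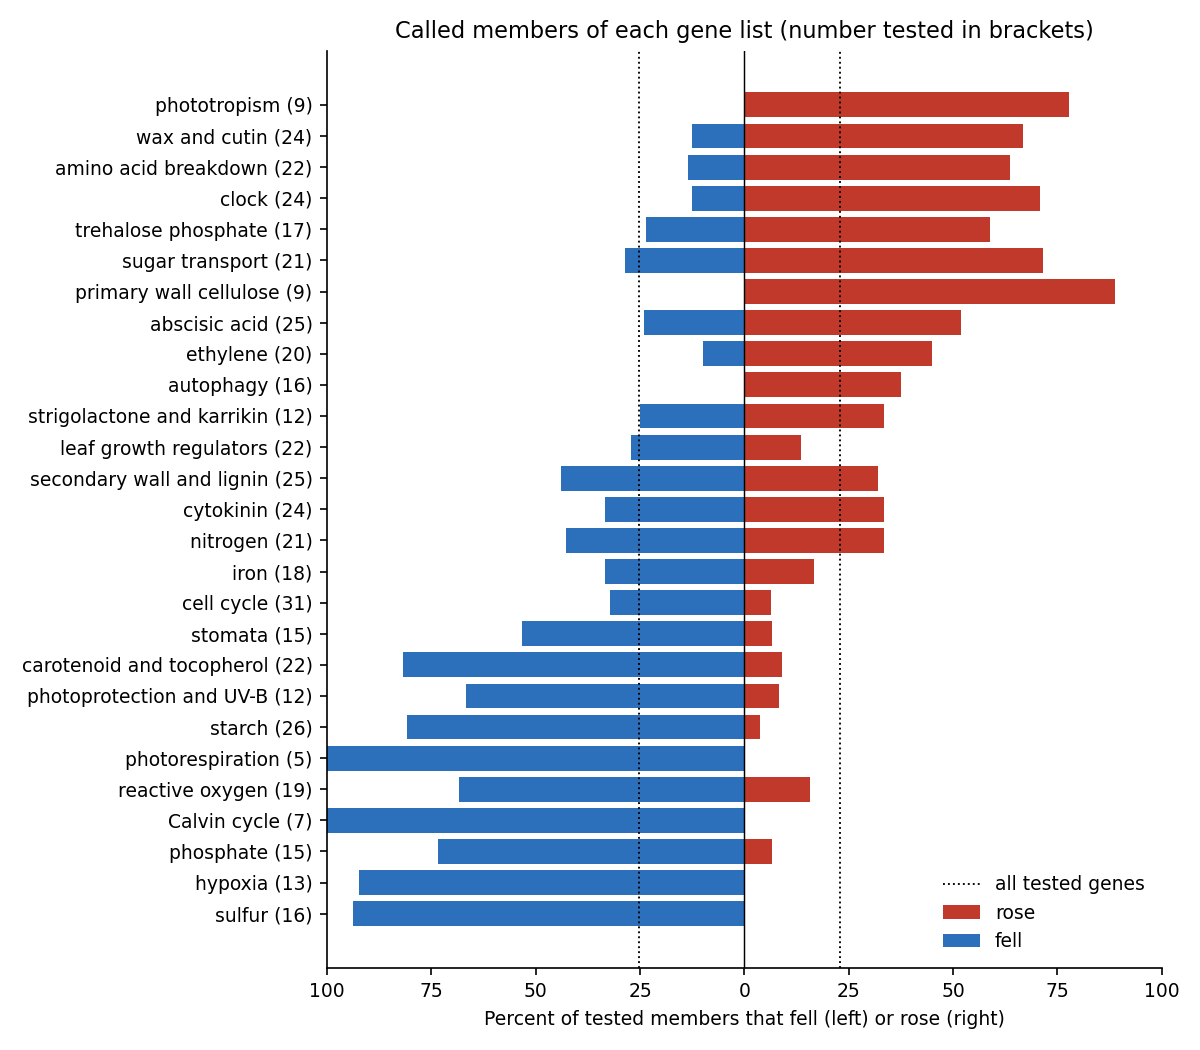
Percent of the tested members that rose (red, right) or fell (blue, left), for all gene lists but shoot, root, seed and shade markers. The number tested is in brackets and lists are ordered by median log2 ratio. Dotted lines mark the shares over all tested genes, 23.0% and 25.3%, and sulfur, hypoxia and phosphate lie at the lower end.

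Growth and cell wall families held many called genes, and SAUR genes, small auxin-induced regulators that keep the plasma membrane proton pump active, stood out by count. Of 55 tested SAUR genes 34 rose and 6 fell, and 24 were at least 2-fold higher, with a median log2 ratio of 0.86. Many lie in clusters on the chromosomes, 5 of which were looked at after the values were seen. All 6 in the AT5G18010 region rose, by 2.62 to 5.02. SAUR19 there went from 0.794 and 4.79 normalized counts to 79.8 and 82.3 (5.02 ± 0.38 SE, or 4.05 and 6.52 without white light library 1 and 2). All 4 that passed in the AT3G03820 region rose, by 2.19 to 3.73, the lowest being SAUR29 at AT3G03820 (3.17 without white light library 1). In the region of AT1G29430 6 of the 7 that passed rose, and near AT4G34750 4 of 6 did. Near AT4G38840 3 rose and 1 fell. Such neighbouring copies are alike in sequence, so reads may be shared between them. Of 23 Aux/IAA genes 13 rose and 2 fell. IAA6 went from 2.38 and 3.60 to 76.7 and 82.3 (4.74 ± 0.32 SE), and IAA19 from 50.8 and 61.1 to 264 and 316 (2.39 ± 0.14 SE).

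Wall enzymes and structural proteins rose more often than they fell. Of 28 tested XTH genes, whose products remodel xyloglucan, 16 rose and 2 fell. Of the 29 that passed the filter, 11 were at least 2-fold higher. XTH24 rose from 327 and 356 to 2141 and 2118 (2.65 ± 0.074 SE), while XTH31 fell from 1191 and 1157 to 238 and 238 (-2.30 ± 0.073 SE). Expansins, which loosen walls without cutting them, were divided, 7 up and 4 down of 22 with a median of 0.02. EXLA1 rose from 51.6 and 74.3 to 637 and 416 (3.12 ± 0.22 SE) and EXPA8 from 324 and 412 to 1207 and 1517 (1.90 ± 0.12 SE), while EXPA15 fell from 1006 and 1152 to 342 and 262 (-1.82 ± 0.11 SE). Of 41 arabinogalactan and fasciclin-like genes, which encode glycoproteins of the cell surface, 22 rose and 4 fell. FLA9 rose from 886 and 976 to 3785 and 3808 (2.03 ± 0.070 SE), and AGP12 from 1026 and 1154 to 3792 and 4104 (1.86 ± 0.076 SE).

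Genes of the cellulose machinery rose together by small steps. Of 9 primary wall cellulose genes 8 rose, from 0.20 for CESA1 to 0.67 for GH9A1 (also called KORRIGAN). DESeq2 called 6 and not CESA1, which was also lost without white light library 2 or low R:FR library 1. The other member, CESA5, did not pass (-0.18 ± 0.071 SE; edgeR, Benjamini-Hochberg adjusted p = 0.0531). Of 15 tubulin genes, whose microtubules guide cellulose synthase, 14 rose and none fell, with TUB5 going from 1368 and 1558 to 3280 and 3670 (1.25 ± 0.080 SE). Secondary wall and lignin genes were divided, 8 up and 11 down of 25. PAL1, the entry to phenylpropanoids, fell from 6362 and 5838 to 2530 and 2484 (-1.28 ± 0.066 SE), while PAL4 rose from 207 and 234 to 470 and 465 (1.1 ± 0.089 SE) and the laccase LAC17 from 183 and 161 to 309 and 319 (0.86 ± 0.097 SE). The surface layers changed with the walls. Of 24 wax and cutin genes 16 rose and 3 fell, with a median of 0.61. KCS1, an elongase of very long fatty acids, rose from 493 and 569 to 1867 and 1982 (1.86 ± 0.080 SE), and CYP86A4, a hydroxylase of cutin monomers, fell from 171 and 179 to 66.9 and 89.3 (-1.17 ± 0.14 SE).

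Aquaporin genes, which encode water channels, held 0.478% of the white light column and 1.01% of the low R:FR column. Of 24 with a test 10 rose and 8 fell, and 10 of the 29 that passed the filter were at least 2-fold higher. PIP1C, a plasma membrane channel, rose from 2602 and 2895 to 7214 and 8044 (1.47 ± 0.076 SE). TIP2;3, a vacuolar channel and a root marker, rose from 117 and 134 to 629 and 941 (2.65 ± 0.18 SE). NIP2;1, which is induced by low oxygen, fell from 42.9 and 25.2 to 8.60 and 7.83 (-2.09 ± 0.35 SE). DESeq2 called 8 up and 4 down. Lipid transfer protein genes fell in 5 of 6 tested cases, among them LTP4 and LTP3, which went from 122 and 201 to 47.3 and 29.0 (-2.00 ± 0.25 SE) and from 239 and 242 to 104 and 58.0 (-1.53 ± 0.18 SE). The most abundant, LP1, had no test and went from 9043 to 11042 (log2 ratio 0.29), so that the summed share of the 7 was 0.129% under white light and 0.144% in low R:FR.

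**Figure D5:**
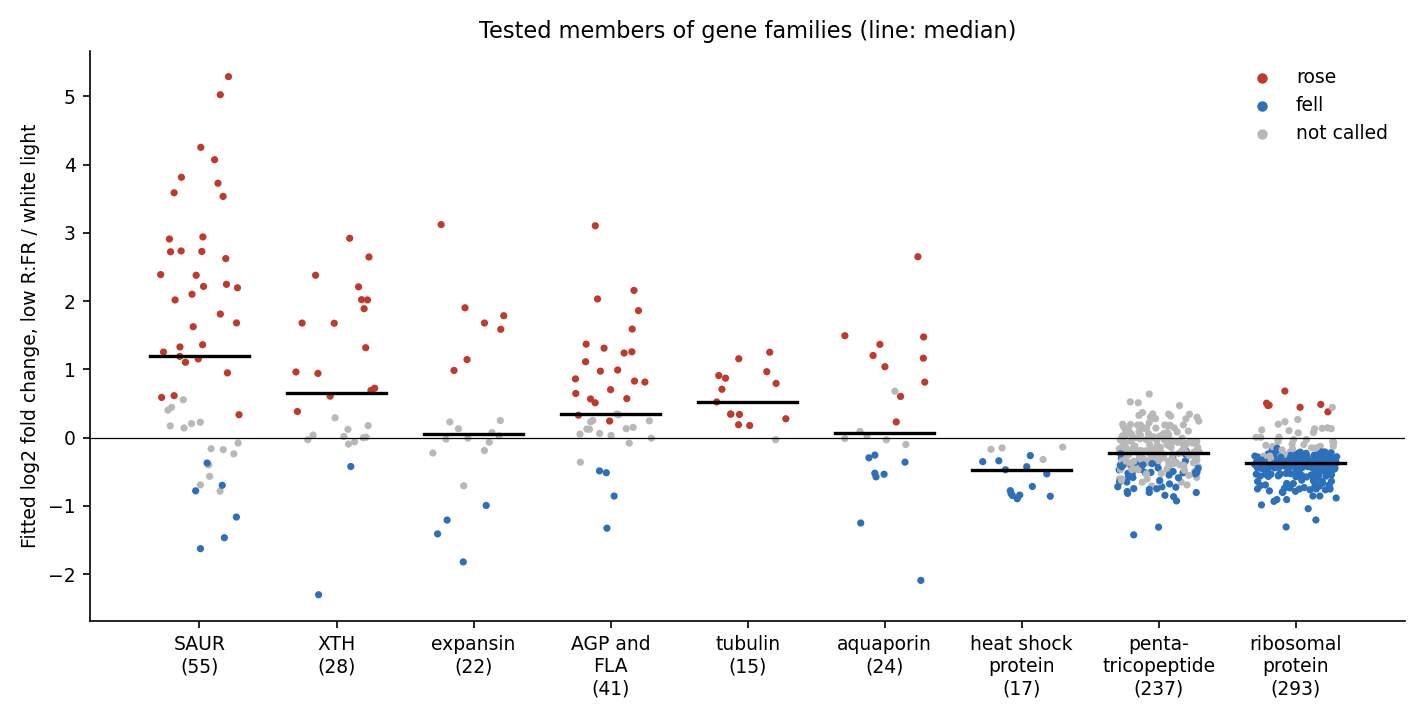
Fitted log2 fold change of low R:FR over white light (y axis) for each tested member of 9 gene families (number tested in brackets), red where it rose, blue where it fell, grey where it was not called, with a line at the family median. SAUR genes reach highest, tubulins lie above 0 except 1 member, and ribosomal protein genes form a narrow band mostly below 0.

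Phototropism genes rose in 7 of 9 cases and none fell. PHOT1, the blue light receptor of hypocotyl bending, rose from 1584 and 1597 to 3802 and 3972 (1.29 ± 0.063 SE), while its relative PHOT2 stood at 2878 and 2576 against 3040 and 3043 and did not pass (0.16 ± 0.068 SE; edgeR, Benjamini-Hochberg adjusted p = 0.0767). The phytochrome kinase substrate genes, whose proteins act with phototropins, rose where tested. PKS4 went from 20.7 and 14.4 to 122 and 137 (2.83 ± 0.20 SE), PKS2 from 191 and 183 to 781 and 750 (2.03 ± 0.083 SE) and PKS1 by 1.3 ± 0.11 (SE). RPT2, a signalling partner, rose from 1777 and 1840 to 3864 and 4197 (1.16 ± 0.067 SE).

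Hormone genes outside the auxin pathway moved by member. Ethylene genes rose in 9 of 20 cases and fell in 2. ACS8 and ACS11, synthases of the ethylene precursor ACC, went from 2.38 and 2.40 normalized counts to 82.3 and 72.9 (4.97 ± 0.34 SE) and from 9.53 and 13.2 to 109 and 85.4 (3.14 ± 0.26 SE). ACO1, an oxidase of the last step, fell from 199 and 137 to 42.4 and 47.0 (-1.95 ± 0.19 SE). The more abundant EFE, described as an ethylene-forming enzyme, rose from 1838 and 1818 to 3162 and 3512 (0.87 ± 0.069 SE). Cytokinin genes gave 8 up and 8 down of 24, or 7 and 4 by DESeq2. LOG5 and LOG7, which release active cytokinin, rose (2.62 ± 0.15 and 1.40 ± 0.11 SE), and so did CKX5, which degrades it, from 149 and 126 to 346 and 339 (1.3 ± 0.10 SE). Of the response regulators, RR5 rose from 81.8 and 93.5 to 202 and 170 (1.11 ± 0.14 SE) and ARR15 fell from 31.0 and 26.4 to 12.3 and 8.62 (-1.44 ± 0.31 SE). Abscisic acid genes gave 13 up and 6 down of 25. The synthesis gene NCED3 rose by 1.66 ± 0.19 (SE), and of the genes that inactivate the hormone, CYP707A2 fell from 95.3 and 114 to 23.9 and 16.5 (-2.32 ± 0.21 SE) and CYP707A1 rose from 77.0 and 115 to 265 and 209 (1.36 ± 0.17 SE). Of 12 strigolactone and karrikin genes 4 rose and 3 fell. MAX2, the F-box gene of this pathway, rose by 0.87 ± 0.095 (SE).

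Clock genes were sampled in continuous light at a time of day the labels do not give, so phase and level cannot be told apart in them. Of 24 with a test 17 rose and 3 fell, and 7 of the 25 that passed the filter were at least 2-fold higher. The 3 that fell were morning-phased: LHY from 962 and 807 to 167 and 166 (-2.42 ± 0.098 SE), CCA1 from 643 and 531 to 287 and 312 (-0.98 ± 0.098 SE) and RVE8 from 469 and 427 to 270 and 248 (-0.79 ± 0.089 SE). PRR7, a repressor of LHY and CCA1, rose from 228 and 258 to 844 and 954 (1.90 ± 0.092 SE), and GI, an evening gene, from 295 and 366 to 940 and 918 (1.51 ± 0.091 SE). EPR1, described like LHY as a homeodomain-like protein, went against LHY and rose from 83.4 and 95.9 to 289 and 334 (1.81 ± 0.12 SE). CDF1, CDF2 and CDF3, DOF factors bound by GI, rose as well, CDF1 from 110 and 122 to 327 and 325 (1.5 ± 0.10 SE). Adjusted p of the called clock genes reached from 9.67e-10 for LHY to 0.0427 (edgeR, Benjamini-Hochberg).

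Transcription factor families were divided, most with more members up than down, while GATA genes gave 3 up and 3 down of 25. Of 51 homeobox genes, of the HD-Zip, KNOX and related types, 16 rose and 8 fell. HB-2, a classic shade-induced HD-Zip gene, rose from 55.6 and 80.3 to 473 and 510 (2.90 ± 0.13 SE), HB52 from 15.9 and 12 to 91.5 and 94.8 (2.69 ± 0.22 SE), and the KNOX gene KNAT1, which acts in the shoot meristem and stem, from 190 and 167 to 526 and 515 (1.53 ± 0.091 SE). Of 27 B-box genes 10 rose and 5 fell, with COL5 going from 267 and 292 to 2054 and 2280 (2.96 ± 0.084 SE). Of 52 WRKY genes 19 rose and 7 fell, or 14 and 2 by DESeq2. WRKY75, which acts in leaf ageing, went from 23.0 and 24.0 to 84.1 and 117 (2.08 ± 0.23 SE). Of 71 NAC genes 17 rose and 10 fell, or 11 and 2 by DESeq2. The share of NAC genes that rose was near the 23.0% over all tested loci. NAC3 rose from 8.74 and 8.39 to 67.5 and 96.4 (3.22 ± 0.30 SE) and NAC6, a regulator of leaf ageing, from 38.1 and 45.5 to 116 and 95.6 (1.37 ± 0.18 SE). Of 16 SPL genes, which time phase change and flowering, 7 rose and 2 fell, with SPL3 from 8.74 and 5.99 to 28.9 and 41.5 (2.17 ± 0.36 SE).

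Ribosomal protein genes showed a small and wide decrease. Of 293 tested by their description, 245 fell and 7 rose, none was past 2-fold by the log2 ratio, and the median was -0.37 against -0.02 over all loci. With equal totals the median was -0.24 against 0.10 for all loci, so the family was below the median gene under both. Their summed share went from 5.56% of the white light column to 4.57%. Of 17 heat shock protein genes 13 fell and none rose, among them the plastid chaperone gene CR88 from 3474 and 3418 to 1868 and 1933 (-0.86 ± 0.062 SE). Of 237 pentatricopeptide repeat genes, whose proteins process RNA in plastids and mitochondria, 51 fell and none rose, or 23 by DESeq2. The share of this family that fell was below the 25.3% over all tested loci. Its log2 ratios were below 0 in 186 of 237 genes, against 10520 of 20111 over all loci. Its median log2 ratio was -0.18 against -0.02 for all loci, or -0.08 against 0.10 with equal totals. Plastid-encoded transcripts fell in 38 of 93 tested cases and rose in 7, or 22 and 1 by DESeq2. How RNA was selected for the libraries is not given, which matters for transcripts of organelles. Of 40 histone genes 9 rose and 3 fell. HIS1-3, a linker histone known from drought and low light, rose from 164 and 158 to 641 and 783 (2.14 ± 0.11 SE).

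Genes of stomata, leaf form and division moved little, and DESeq2 called few of them. Of 15 stomatal genes 8 fell and 1 rose, against 3 and none by DESeq2. SDD1, a protease that limits stomatal density, fell from 85.8 and 88.7 to 41.1 and 35.3 (-1.18 ± 0.17 SE), and STOMAGEN, a peptide that promotes stomata, from 290 and 294 to 190 and 197 (-0.59 ± 0.090 SE). TMM, a receptor of this pathway, fell as well (-0.54 ± 0.11 SE). Of 31 cell cycle genes 10 fell and 2 rose, against 4 and none by DESeq2, with CYCA2;3 going from 165 and 180 to 101 and 110 (-0.71 ± 0.12 SE). Of 22 leaf growth regulators 6 fell and 3 rose, or 2 and 2 by DESeq2, and the median log2 ratio of -0.04 changed sign to 0.09 with equal totals. ANT, which promotes organ growth, fell from 380 and 350 to 241 and 244 (-0.60 ± 0.087 SE).

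Neighbouring genes moved together in some places. Runs of at least 3 adjacent protein-coding genes past the filter that were all at least 2-fold higher numbered 9, and runs all at least 2-fold lower numbered 4. These were looked for after the values were seen. Of the higher runs 3 held SAUR genes alone, and a further one held 2 SAUR genes beside AT1G29520, of the AWPM-19-like family. A run on chromosome 1 held FAD-dependent oxidase genes of the berberine bridge enzyme type, among them AT1G30720 from 21.4 and 12 to 204 and 254 (3.68 ± 0.21 SE) and AT1G30730 from 22.2 and 24.0 to 146 and 225 (2.99 ± 0.25 SE). A run on chromosome 5 held the peroxidase genes AT5G64100, AT5G64110 and AT5G64120, which rose by 1.88 ± 0.12, 1.19 ± 0.15 and 1.71 ± 0.073 (SE). Among the lower runs were EARLI1 with its neighbours AT4G12490, from 579 and 209 to 3.07 and 6.27 (-6.49 ± 0.58 SE), and AT4G12500 (-5.86 ± 0.56 SE). Without white light library 1 these were -5.51 and -5.17. LTP4 and LTP3 lay side by side in another, and RBCS1B, RBCS2B and RBCS3B formed one more. Such runs consist largely of related copies, between which reads may be shared.

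In the libraries labelled hfr1-4pil1-2, each light had 1 library, so every SE and p of a difference rests on the spread between the Col-0 libraries alone. The difference of the responses was tested for the 5 highest and 5 lowest genes with HFR1, which is among them, and PIL1, 11 genes in all. The 10 were chosen for extreme responses in Col-0, and those same Col-0 values enter the difference. Over all loci 763 of 20014 (3.81%) were called for such a difference, and of the 11 genes HFR1 and PIL1 were called. The mutant libraries had more of both transcripts in white light, with HFR1 at 189 and PIL1 at 220 normalized counts against means of 27.9 and 16.5 in Col-0, so transcript levels do not check the genotype. The log2 fold change was lower in hfr1-4pil1-2 than in Col-0, the difference being -2.87 ± 0.23 for HFR1 and -1.28 ± 0.32 for PIL1 (SE; edgeR, Benjamini-Hochberg adjusted p = 6.73e-05 and 0.0449). PIL1 missed the threshold with DESeq2 (0.0669), without white light library 1 (0.194) and without low R:FR library 2 (0.0527). SEN1 had log2 ratios of 6.09 in Col-0 and 5.05 in the mutant libraries, and the difference missed the threshold (-1.69 ± 0.44 SE; edgeR, Benjamini-Hochberg adjusted p = 0.0528). The SEN1 difference passed with TMM scaling (-1.69) and missed with DESeq2 (-1.68). Its size depended on the white light libraries, at -1.13 without library 1 and -2.24 without library 2. Without low R:FR library 1 or 2 it was -1.81 or -1.55. IAA29 had log2 ratios of 4.47 and 5.98, and DFR of -5.69 and -4.78, with adjusted p of 0.163 and 0.210 for the differences (edgeR, Benjamini-Hochberg), which does not show that the genotypes respond alike. DFR passed without white light library 2 (0.0222).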

How the data were processed

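The values are normalized counts, a signal the authors scaled with a size factor per library, per the file headers and the values themselves. The submitters' processing notes name Bowtie and TAIR10, and whether counting used strand is not given in the sources used here, so reads of overlapping or antisense genes cannot be told apart. GEO's labels list 1 sample per group. The deposited Col-0 columns are means, and their steps gave whole reads of 2 libraries each. In the hfr1-4pil1-2 columns 100% of values came out whole within 0.01 reads. Loci that could not be split (72 in white light, 83 in low R:FR) hold 20.4% and 18.0% of the column totals.

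Recovered reads of loci with a mean of at least 10.8 were tested with edgeR 4.0.16 (R 4.3.3, glmQLFit and glmQLFTest, the authors' size factors, 4 Col-0 libraries) with Benjamini-Hochberg adjustment over 20014 loci. The approximate SE was derived from the F statistic of each gene. The common biological coefficient of variation was 0.0525 with 2 residual degrees of freedom. Tested on simulated data, the step recovered 92 of 100 genes changed 2-fold and 99 of 99 changed 4-fold, with 6 false calls among 197. The simulation gave every gene the common coefficient of 0.0525 and changed only 200 genes. Its false calls therefore do not measure those in these data. Alternatives were DESeq2 1.42.0, TMM, other filters and added counts, equal column totals, all 6 libraries and leaving out each library. The 31 gene lists and 49 families, and the members shown, were chosen with earlier results of these data known. Genes named were the 15 highest and 15 lowest with a symbol, the 10 largest gains and losses, and up to 4 members per list or family. Further list members and neighbouring genes were named after their values were seen. Promoters were cut by locus from the RefSeq TAIR10.1 genome, and no coordinates of the authors were used.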

Additional observations from a re-analysis of the deposited data

Results flagged for a closer look

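HFR1 and PIL1 were picked out because their responses differed between the genotypes by a test of the difference. The log2 response in hfr1-4pil1-2 minus that in Col-0 was -2.87 for HFR1 and -1.28 for PIL1 (edgeR, Benjamini-Hochberg adjusted p = 6.73e-05 and 0.0449). In low R:FR, HFR1 stood at 2112 normalized counts in the mutant library and 2203 in the Col-0 column, while PIL1 stood at 1574 and 277. Both had more transcript in the mutant library than in Col-0 in white light. These are the genes the line is labelled as mutated in. Each light had 1 mutant library, so the p-values rest on the spread between Col-0 libraries alone, and HFR1 was chosen for its high response in Col-0, which enters the difference. PIL1 missed the threshold with DESeq2 (adjusted p = 0.0669), without white light library 1 (0.194) and without low R:FR library 2 (0.0527).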

How the results depend on the processing

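None of the 616 called genes of the lists, families and rankings changed direction under the alternative fits run for them (508 of them with 5 times the filter). With DESeq2 in place of edgeR, 2801 genes were higher and 3062 lower, all of them among the main 4611 and 5056. With 5 times the filter value added before the ratio, 532 genes passed 2-fold upward and 298 downward, against 963 and 561. TMM, no filter, 5 times the filter and all 6 libraries kept each count within 1.5 times. Without each library in turn the counts were 3655 to 4302 higher and 4079 to 4645 lower. Of these genes, DESeq2 did not call 113, TMM 5, and leaving out 1 library between 38 and 62. Of 80 lists and families, the larger of the counts up and down turned in 2 with DESeq2 and in 0 with TMM, and the sign of the median turned in 10 with equal column totals.

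No paired analysis was possible because the labels give no replicate numbers and the recovered libraries were numbered by their size factors alone. The spread between libraries of a light was above sampling noise (mean chi-square of a gene 2.41 for white light, 2.59 for low R:FR). Depth limits low genes, and 97 abundant loci have no test.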
